A study of Mus musculus with 24 samples.

Results

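The heat shock and unfolded protein response genes described here are 36 genes fixed by symbol: cytosolic heat shock proteins and their cochaperones, the mitochondrial chaperonin, endoplasmic reticulum (ER) chaperones and disulfide isomerases, factors of ER-associated degradation and 3 stress transcription factors. They were measured among 55401 annotated genes by RNA sequencing of ribosome-depleted total RNA in 3 tissues of the same 8 C57BL6/J mice: the heart's left ventricle, kidney and skeletal muscle. There were 4 mice of 16.5 weeks (females, replicates 14 and 15; males, replicates 19 and 20) and 4 of 86 weeks (females, replicates 11 and 12; males, replicates 14 and 17), so that every tissue had 8 libraries and every age held 2 females and 2 males. No genetic change and no treatment is named for any mouse, and neither the muscle sampled nor the region of the kidney is named. All 36 symbols were found and all 36 passed the filter on low counts in every comparison, with 132 reads in a library as the lowest member count. Ddit3 has a further annotated row, with 0 reads in all 24 libraries, which was left out.

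Heat shock proteins are chaperones: they bind unfolded stretches of other proteins and help them fold, refold or be degraded. Heat and other protein-damaging stress release heat shock factor 1, which binds GAA repeats before the inducible genes and raises their transcription. The unfolded protein response is the counterpart in the ER, where the sensors IRE1, PERK and ATF6 answer unfolded secretory proteins through XBP1, ATF4 and cleaved ATF6, which raise chaperone and degradation genes. Striated muscle is known for high levels of small heat shock proteins, which guard its contractile filaments.

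Some promoters of the module hold the binding motif of 1 of the responses, and the stretches are printed here to show the letters that were found. Of 30 members searched, 15 held neither element. RefSeq promoters (build GRCm38.p6) were at hand for 30 of the 36 members, and the 250 bases before the transcript start were searched on both strands. For Dnajb1, Bag3, Pdia4, Herpud1 and Xbp1, all among the 15 with neither element, no start searched is in the GENCODE annotation. Elements before their annotated starts could be missed. The ER stress element, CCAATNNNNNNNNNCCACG, was found in 7 of the 30 members, all of them ER genes. The members have 36 promoters in the table, since some have several starts, and 19.4% of these held the element, beside 0.113% of 32851 mouse promoters. The motif is in capitals in each stretch, which is written on the gene's strand:
Hspa5 (chr2:34772020-34772048, +): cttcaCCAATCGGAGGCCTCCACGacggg
Hsp90b1, the stretch nearer its start (chr10:86705528-86705556, -): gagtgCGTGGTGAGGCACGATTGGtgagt
Hsp90b1, the stretch farther from its start (chr10:86705633-86705661, -): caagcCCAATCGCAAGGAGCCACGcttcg
Calr (chr8:84847070-84847098, -): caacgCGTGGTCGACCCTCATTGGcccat
Canx (chr11:50325795-50325823, -): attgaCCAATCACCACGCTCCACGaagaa
Creld2 (chr15:88819515-88819543, +): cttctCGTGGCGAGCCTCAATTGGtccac
Dnajc3 (chr14:118937822-118937850, +): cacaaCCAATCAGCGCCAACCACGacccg
Pdia6 (chr12:17266486-17266514, +): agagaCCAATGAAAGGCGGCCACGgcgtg

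The heat shock element core, searched as GAANNTTC or TTCNNGAA, was found in 8 of the 30 members, all cytosolic or mitochondrial chaperone genes. It was in 25% of the 36 promoters, beside 12.8% of all promoters. For Dnaja1 it was before 1 of 3 starts and for Hspb6 and Hspd1 before 1 of 2, and the Dnaja1 and Dnajc3 starts whose stretches are printed are not in the GENCODE annotation. Hspd1 and Hspe1, which encode the large and the small subunit of the mitochondrial chaperonin, are read in opposite directions from 1 shared stretch, so that the same cores serve as the upstream sequence of both. The stretches of Hspa1a and Hspa1b are identical in sequence:
Hspa1a (chr17:34972248-34972265, -): tgctgGAAGATTCctggc
Hspa1b (chr17:34959330-34959347, -): tgctgGAAGATTCctggc
Hsph1 (chr5:149636357-149636374, -): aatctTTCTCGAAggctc
Dnaja1 (chr4:40722339-40722356, +): ctctaGAAAATTCtacga
Hspb6 (chr7:30553176-30553193, +): ttattGAAGTTTCtaaat
Hspd1 (chr1:55088054-55088081, -): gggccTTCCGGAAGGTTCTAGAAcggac
Hspe1 (chr1:55088054-55088081, +): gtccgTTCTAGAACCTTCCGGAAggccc

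Hspb1, the eighth gene with the core, held it at chr5:135887797-135887814 and again at chr5:135887817-135887834. The core is short and overlaps itself in Hspd1 and Hspe1. A CCAAT box was present in 23 of the 30 members and in 33.8% of all promoters, and this box is part of the ER stress element. The unfolded protein response element TGACGTGG was in 0 of the 30 members and in 0.563% of all promoters. A match to letters is a description and not evidence of binding.

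Hspa1a and Hspa1b are the stress-inducible HSP70 genes and lie close together on the minus strand of chromosome 17 (Hspa1a chr17:34969190-34972156, Hspa1b chr17:34956436-34959238). Over the 250 bases before their starts 247 positions were identical. The stretch before Hspa1a (chr17:34972157-34972406, minus strand, heat shock element core in capitals) is shown because the core, a CCAAT box on the other strand and the end of the stretch at the transcript start can be seen together:
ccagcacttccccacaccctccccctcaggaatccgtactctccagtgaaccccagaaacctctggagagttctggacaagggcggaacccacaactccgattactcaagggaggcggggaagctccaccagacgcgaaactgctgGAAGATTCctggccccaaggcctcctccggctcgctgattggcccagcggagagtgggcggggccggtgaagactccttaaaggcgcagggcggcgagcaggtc
The transcripts are alike too: 60.3% of the runs of 50 bases in Hspa1a and 62.3% of those in Hspa1b occur in another gene, for the most part in each other. Reads of the pair cannot be assigned with certainty, and several results below use their sum. The same limit touches Hspb1 (48.8%), Hsp90aa1 (47.5%), Hspd1 (39.7%), Hspa8 (38.6%), Hspe1 (18.4%), Dnaja1 (11.9%) and Dnajb9 (5.5%), each of which shares most of these runs with 1 other annotated gene.

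Libraries held 52.6 to 93.8 M counts in left ventricle, 59.1 to 103.8 M in skeletal muscle and 59.2 to 82.9 M in kidney (M, mega). The module took 0.502% to 0.575% of the counts in left ventricle, 0.268% to 0.315% in skeletal muscle and 0.570% to 0.764% in kidney. In CPM (the count divided by the scaled library total in M) per kilobase of exon, no member lay under the 95th percentile of 1410 olfactory receptor genes, which are not expected to be expressed here (0.298 in left ventricle, 0.346 in skeletal muscle, 0.248 in kidney). Tissue markers matched the labels, with exceptions in single libraries. The cardiac myosin gene Myh6 reached 342 CPM in the skeletal muscle of 86-week replicate 17 against 4.82 to 10.3 CPM in the other 7 muscle libraries and 29953 to 44084 CPM in left ventricle. The kidney gene Umod reached 19.3 CPM in the skeletal muscle of 16.5-week replicate 19, and Myh6 26.9 CPM in the kidney of 86-week replicate 12. In left ventricle the kidney gene Kap was 7.53 CPM in 16.5-week replicate 20 and 5.63 CPM in 86-week replicate 14, both males. It was 0.0433 to 0.233 CPM in the other left ventricle libraries and 791 to 4812 CPM in kidney. The part of kidney transcripts in the left ventricle sex comparison was not tested.

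Levels in the tissue comparisons below are CPM scaled by TMM (trimmed mean of M values) over all 24 libraries. In the age and sex comparisons they are scaled within the tissue, so the same library can have slightly different values in the different sections. All log2 differences are fitted by edgeR, with the standard error (SE) after the ± sign and a gene called at a Benjamini-Hochberg adjusted p under 0.05 over all genes tested. The SE is not given by edgeR and was taken as the size of the log2 difference divided by the square root of its F statistic. After a level in CPM, the ± sign gives the SD. In bulk tissue, fewer cells of a type and less RNA per cell cannot be told apart.

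**Figure D1:**
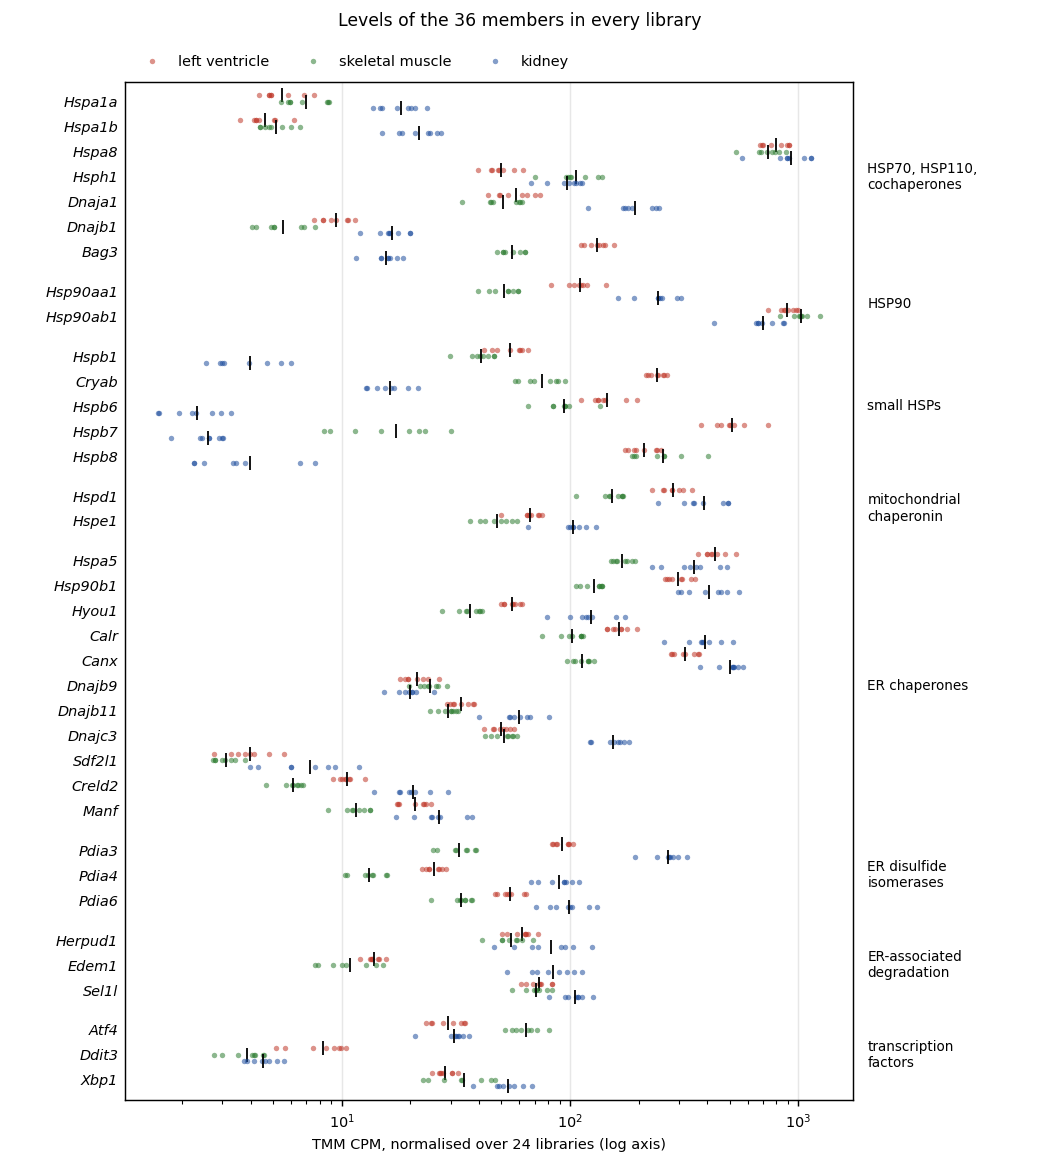
TMM CPM (log axis) of each of the 36 members in every library, coloured by tissue, with a black tick at the mean of the 8 libraries of a tissue. Small heat shock proteins sit lowest in kidney (sum of 29.1 CPM against 1163 CPM in left ventricle), while most ER genes sit highest there.

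The tissues differed in which arm of the module they expressed. Small heat shock proteins were high in left ventricle and skeletal muscle and low in kidney, whereas the ER chaperones, disulfide isomerases and degradation factors were highest in kidney and lowest in skeletal muscle. Of the 36 members, 24 had their highest mean in kidney, 7 in left ventricle and 5 in skeletal muscle, and 22 had their lowest mean in skeletal muscle. Compared per kilobase of exon, Hsp90ab1, the constitutive cytosolic HSP90, was the most abundant member in every tissue, with 342 CPM per kilobase in skeletal muscle, 298 in left ventricle and 234 in kidney.

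Between left ventricle and skeletal muscle, 21 members were called higher in left ventricle (15.4% of all 46984 genes tested) and 3 lower (11.3% of all genes). At a change of at least 2-fold these were 9 higher (5.84% of genes) and 2 lower (3.44%). With a filter of 1 CPM in 4 libraries the split was 20 higher (28.6% of 22801 genes) and 7 lower (29% of genes). Kidney against left ventricle gave 24 higher (19.3% of genes) and 8 lower (14.3%), of which 10 higher (8.68%) and 6 lower (5.49%) were at least 2-fold. Kidney against skeletal muscle gave 25 higher (22.1%) and 9 lower (21.4%), of which 21 higher (11.6%) and 7 lower (6.24%) were at least 2-fold. With the 1 CPM filter, kidney against left ventricle gave 23 higher (34.8% of genes) and 10 lower (33.7%). Under the same filter kidney against skeletal muscle gave 24 higher (37.1%) and 10 lower (42.4%). The median log2 difference of the members was 0.55 for left ventricle against skeletal muscle, 0.64 for kidney against left ventricle and 1.15 for kidney against skeletal muscle, beside medians of -0.12, -0.10 and -0.23 over all genes.

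Scaling to total counts in place of TMM moved the median of all genes by 0.32, 0.28 and 0.59 in the same order. The members' calls were then 28 higher and 2 lower, 27 higher and 7 lower, and 28 higher and 7 lower. The calls over all genes moved from 7216 higher and 5300 lower to 11500 and 2646, from 9055 and 6715 to 12452 and 3928, and from 10392 and 10045 to 16363 and 2465. Directions that turned under that scaling are named beside the genes below.

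**Figure D2:**
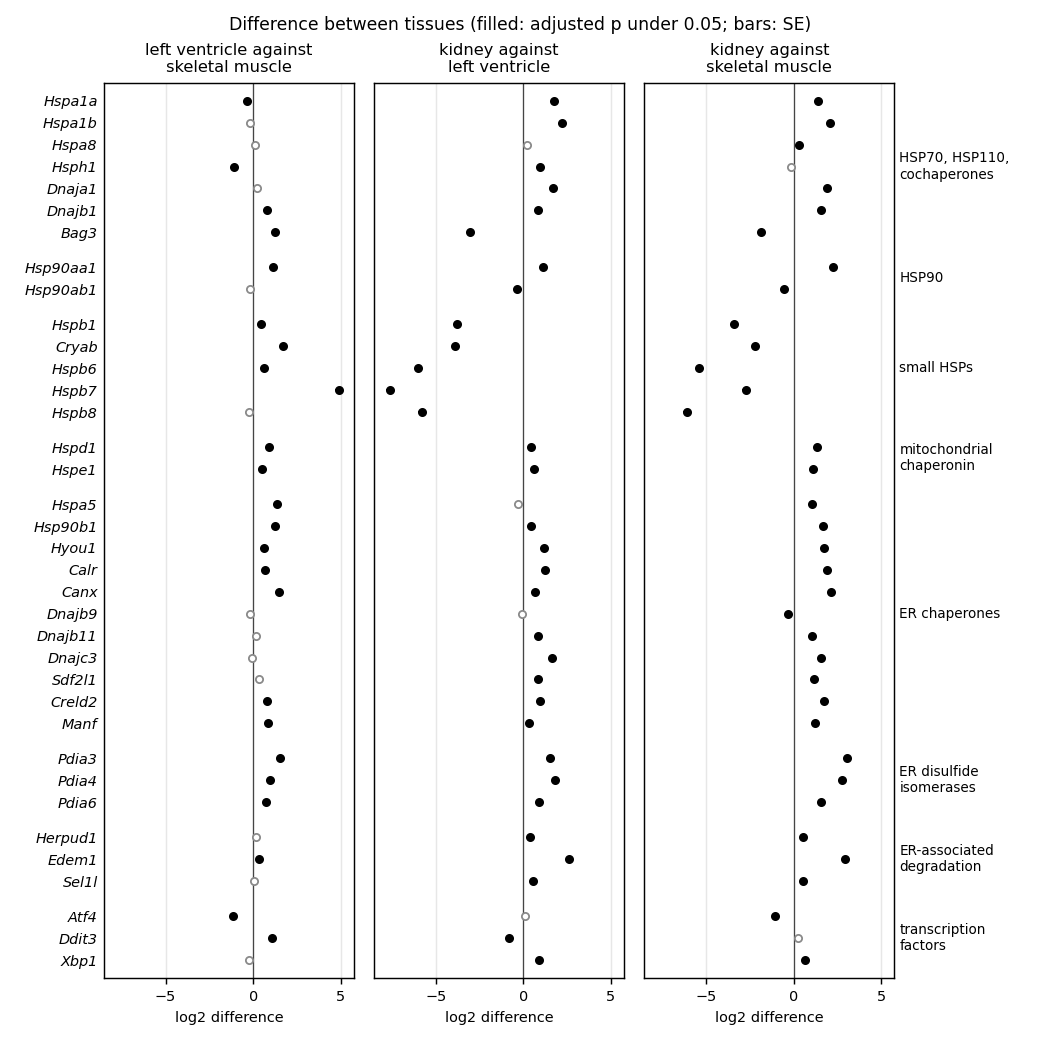
log2 difference between tissues for each member with its SE (often smaller than the point), filled where the adjusted p was under 0.05. The 5 small heat shock proteins lie far left of 0 in both kidney panels (down to -7.61 for Hspb7), and all 3 disulfide isomerases lie right of 0 in every panel.

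The small heat shock proteins, which hold unfolding proteins without using ATP, made the widest differences. Their 5 genes summed to 1163 ± 167 CPM in left ventricle (SD, n = 8), 482 ± 84.5 CPM in skeletal muscle and 29.1 ± 4.47 CPM in kidney. Hspb7, the cardiovascular small heat shock protein, had a lowest, median and highest level of 374, 500.5 and 735 CPM in left ventricle, 8.40, 17.3 and 30.2 CPM in skeletal muscle and 1.79, 2.61 and 3.02 CPM in kidney. The tissues did not overlap. Left ventricle exceeded skeletal muscle by 4.89 ± 0.22 on the log2 scale, and kidney was below left ventricle by -7.61 ± 0.26 and below skeletal muscle by -2.73 ± 0.21.

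Hspb8, the partner of BAG3 in chaperone-assisted autophagy, did not separate the muscles. Its lowest, median and highest levels were 174, 203 and 251 CPM in left ventricle, 187, 249 and 403 CPM in skeletal muscle and 2.25, 3.39 and 7.66 CPM in kidney. The muscles overlapped (-0.27 ± 0.16 for left ventricle against skeletal muscle, adjusted p = 0.281, and 0.06 under total counts), while kidney was lower by -5.81 ± 0.21 against left ventricle and -6.08 ± 0.21 against skeletal muscle. Bag3 itself, which links HSP70 to small heat shock proteins, was graded: 132 ± 14.8 CPM in left ventricle, 55.6 ± 6.10 CPM in skeletal muscle and 15.7 ± 2.04 CPM in kidney. Hspb6, a small heat shock protein of contractile cells, was lower in kidney by -5.99 ± 0.14 against left ventricle and by -5.37 ± 0.14 against skeletal muscle. Cryab, the αB-crystallin that binds desmin and titin, was 1.68 ± 0.11 higher in left ventricle than in skeletal muscle, and -3.90 ± 0.12 and -2.22 ± 0.11 lower in kidney than in left ventricle and skeletal muscle. Hspb1 was 0.43 ± 0.13 higher in left ventricle than in skeletal muscle and was lower in kidney by -3.81 ± 0.14 against left ventricle.

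The inducible HSP70 genes were low in all 3 tissues and highest in kidney. Hspa1b had a lowest, median and highest level of 3.57, 4.28 and 6.17 CPM in left ventricle, 4.37, 4.84 and 6.58 CPM in skeletal muscle and 15, 22.5 and 27.1 CPM in kidney. Kidney did not overlap with the other tissues, and the excess was 2.23 ± 0.11 over left ventricle and 2.07 ± 0.11 over skeletal muscle. For Hspa1a the excess of kidney was 1.72 ± 0.11 and 1.37 ± 0.11. Between the muscles Hspa1a was lower in left ventricle by -0.35 ± 0.11 and Hspa1b was not called (-0.16 ± 0.11). The Hspa1a call was lost with RLE size factors (adjusted p = 0.0597), without a filter (0.0727), without replicate 14 of 16.5 weeks (0.0877) or of 86 weeks (0.0811), and under total counts, where the difference was -0.034.

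Of the other cytosolic members, Dnaja1, a J-domain cochaperone that feeds substrates to HSP70, was 193 ± 41.9 CPM in kidney, 58.2 ± 11 CPM in left ventricle and 51.1 ± 10.2 CPM in skeletal muscle. Dnajb1, the inducible J-domain partner, followed the order kidney, left ventricle, skeletal muscle, with every neighbouring pair called (0.82 ± 0.10 and 0.78 ± 0.10). Hsph1, the HSP110 nucleotide exchange factor, had another order. Its lowest, median and highest levels were 39.5, 48.7 and 62.1 CPM in left ventricle, 70.4, 100.03 and 137.6 CPM in skeletal muscle and 67.6, 101.7 and 113 CPM in kidney. Left ventricle lay below skeletal muscle by -1.09 ± 0.10 without overlap, and skeletal muscle and kidney were not distinguished (-0.12 ± 0.10, adjusted p = 0.346, and 0.47 under total counts). Hspa8, the constitutive HSP70, was called only in kidney against skeletal muscle (0.32 ± 0.11).

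The HSP90 pair split. Hsp90aa1, the inducible form, was 243 ± 48.1 CPM in kidney, 111 ± 17.3 CPM in left ventricle and 51.4 ± 7.26 CPM in skeletal muscle, with differences of 1.13 ± 0.11 and 1.11 ± 0.11 between neighbours. Hsp90ab1 ran the other way, at 701 ± 140.1 CPM in kidney, 892 ± 85.0 CPM in left ventricle and 1026 ± 115 CPM in skeletal muscle. Its kidney values were called lower than left ventricle (-0.36 ± 0.11) and than skeletal muscle (-0.56 ± 0.11, but 0.03 under total counts), and the muscles were not distinguished (-0.20 ± 0.11, 0.12 under total counts, but called at -0.31 with the 1 CPM filter). The call against left ventricle was lost under total counts (-0.088, adjusted p = 0.291) and without 86-week replicate 14 (adjusted p = 0.0666). The mitochondrial chaperonin kept 1 order in both subunits: Hspd1 was 386 ± 90.5 CPM in kidney, 282 ± 35.8 CPM in left ventricle and 152 ± 21.8 CPM in skeletal muscle, and Hspe1 103 ± 18.5, 66.8 ± 7.99 and 47.8 ± 7.75 CPM. All neighbouring differences of the pair were called, from 0.42 ± 0.09 to 0.89 ± 0.09. Mitochondrial transcripts took 25.8% to 29.4% of counts in left ventricle, 13.995% to 17.4% in skeletal muscle and 21.9% to 25.1% in kidney. Their relation to the chaperonin genes was not tested.

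The 11 ER chaperones summed to 2059.5 ± 380.1 CPM in kidney (SD, n = 8), 1406 ± 146 CPM in left ventricle and 674 ± 61.4 CPM in skeletal muscle. Calr and Canx, the lectin chaperones that hold newly made glycoproteins, were higher in kidney than in skeletal muscle by 1.93 ± 0.11 and 2.15 ± 0.10. Hspa5, the HSP70 of the ER lumen known as BiP, departed from the order of its group. Its lowest, median and highest levels were 363, 418 and 535 CPM in left ventricle, 151, 168 and 193 CPM in skeletal muscle and 228, 345 and 489 CPM in kidney. Skeletal muscle lay below both without overlap (left ventricle higher by 1.34 ± 0.13, kidney by 1.05 ± 0.13), while kidney and left ventricle overlapped and the difference was not called (-0.30 ± 0.13, adjusted p = 0.0765). It was called with the 1 CPM filter (-0.41, adjusted p = 0.00211) and without 86-week replicate 17 (-0.43, adjusted p = 0.00502).

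Dnajc3, an ER J-domain protein that also restrains the kinase PERK, was 154 ± 21.6 CPM in kidney and was not called between left ventricle and skeletal muscle, where the sign of its small difference depended on the scaling (-0.05 ± 0.09 with TMM, 0.26 under total counts). Dnajb9, the J-domain protein that keeps IRE1 off, was nearly level over the tissues: 21.3 ± 2.93 CPM in left ventricle, 24.3 ± 2.85 CPM in skeletal muscle and 19.9 ± 2.84 CPM in kidney. Its call in kidney against skeletal muscle (-0.29 ± 0.09) turned to 0.30 under total counts, as did the signs of its uncalled differences (-0.20 ± 0.09 to 0.12 for left ventricle against skeletal muscle, -0.10 ± 0.09 to 0.18 for kidney against left ventricle). The remaining ER chaperones, Hsp90b1, Hyou1, Dnajb11, Sdf2l1, Creld2 and Manf, were each called higher in kidney than in both other tissues. Against left ventricle they ranged from 0.35 ± 0.13 for Manf to 1.15 ± 0.12 for Hyou1.

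The disulfide isomerases, which make and shuffle the disulfide bonds of secreted proteins, were in the order kidney, left ventricle, skeletal muscle for all 3 genes, and all 9 differences were called. Pdia3 was 269 ± 38.9 CPM in kidney, 92.5 ± 7.91 CPM in left ventricle and 32.8 ± 5.11 CPM in skeletal muscle, and its 3.04 ± 0.11 in kidney against skeletal muscle was the largest positive difference of any member in that comparison. Pdia4 followed with 2.78 ± 0.11 and Pdia6 with 1.58 ± 0.11.

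Among the degradation factors, Edem1, a mannosidase-like protein that marks misfolded glycoproteins for export from the ER, stood out. Its lowest, median and highest levels were 12, 13.5 and 15.6 CPM in left ventricle, 7.60, 10.2 and 15.2 CPM in skeletal muscle and 52.8, 84.6 and 112.5 CPM in kidney. Kidney did not overlap with the others and exceeded left ventricle by 2.58 ± 0.13 and skeletal muscle by 2.93 ± 0.13. Herpud1 and Sel1l, members of the ubiquitin ligase complex around HRD1, were higher in kidney than in left ventricle by 0.37 ± 0.11 and 0.52 ± 0.09, and neither was called between the muscles.

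Among the transcription factors, Atf4 and Ddit3 did not follow the ER chaperones, while Xbp1 shared their high level in kidney. Atf4, the effector of PERK and of the wider integrated stress response, had a lowest, median and highest level of 23.4, 29.1 and 34.8 CPM in left ventricle, 51.7, 63.2 and 81.2 CPM in skeletal muscle and 21.0, 31.9 and 36 CPM in kidney. Left ventricle (-1.13 ± 0.11) and kidney (-1.03 ± 0.10) lay below skeletal muscle without overlap, whereas kidney and left ventricle were not distinguished (0.09 ± 0.10, or -0.01 with the filter of 1 CPM in 4 libraries). Ddit3, which encodes the pro-apoptotic factor CHOP, was highest in left ventricle, at 8.27 ± 1.99 CPM against 3.83 ± 0.677 CPM in skeletal muscle and 4.54 ± 0.643 CPM in kidney. Xbp1, whose messenger is spliced by IRE1, was highest in kidney (53.3 ± 9.36 CPM) and not called between left ventricle and skeletal muscle (-0.24 ± 0.11, 0.07 under total counts). Counts per gene do not separate the spliced from the unspliced Xbp1 messenger.

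Several members near the threshold changed sides between settings. With the 1 CPM filter, Hspb8 (-0.37), Dnajb9 (-0.30) and Xbp1 (-0.35) were called lower in left ventricle than in skeletal muscle, Dnajb9 lower in kidney than in left ventricle (-0.21) and Hsph1 lower in kidney than in skeletal muscle (-0.34). Xbp1 was also called lower in left ventricle without 86-week replicate 17 (-0.29). Under total counts Dnajc3 (0.26) and Herpud1 (0.47) were called higher in left ventricle than in skeletal muscle, Atf4 (0.38) and Dnajb9 (0.18) higher in kidney than in left ventricle, and Hsph1 (0.47), Dnajb9 (0.30) and Ddit3 (0.85) higher in kidney than in skeletal muscle. Ddit3 was called there without 16.5-week replicate 19 too (0.35). The Dnajb9 call in kidney against skeletal muscle was lost by DESeq2, with RLE size factors and without replicate 11 or 14 of 86 weeks. Edem1 was called higher in left ventricle than in skeletal muscle (0.35 ± 0.12), a call lost with the 1 CPM filter and in 5 of 8 fits without 1 mouse: replicates 14, 15 and 19 of 16.5 weeks, 14 and 17 of 86 weeks.

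Other genes of these pathways, in lists that exclude the 36 members, were mixed between the tissues. Over all genes, 19.3% were called higher and 14.3% lower in kidney than in left ventricle, for these and the further lists below. The shares were 26.5% and 8.36% under total counts, and 34.8% and 33.7% with the 1 CPM filter. Whether a list differed from all genes was not tested. Of 44 heat shock regulators and cochaperones, 9 were called higher and 21 lower in kidney than in left ventricle. The methyltransferase Smyd1 (-7.56 ± 0.13) and the myosin chaperone Unc45b (-4.74 ± 0.11) fell most clearly, and the HSP70 regulator Bag4 (2.08 ± 0.10) rose. Under total counts this split became 18 higher and 15 lower. Of 14 cytosolic chaperonin and prefoldin genes, 5 were higher and 0 lower (12 and 0 under total counts, 5 and 4 with the filter of 1 CPM).

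A list of 10 genes, called the sensors here, held sensors of the unfolded protein and integrated stress responses and the linked genes Mbtps1, Mbtps2 and Eif2s1. Of these 10, 7 were called higher and 1 lower in kidney than in left ventricle, with the same direction of majority under total counts (9 and 1). Eif2ak3, which encodes PERK, was higher by 1.46 ± 0.09 and Atf6b by 1.11 ± 0.11, while Atf6 was lower by -1.20 ± 0.08. Of 26 further ER folding and quality control genes, 18 were higher and 6 lower (20 and 5 under total counts), with P4hb at 1.66 ± 0.09 and Cdnf at -3.58 ± 0.10. Of 18 further degradation genes, 11 were higher and 2 lower (16 and 1). Of 20 targets of the integrated stress response, 9 were higher and 8 lower (10 and 6). Among these, Cth, an enzyme of cysteine synthesis, was higher by 5.76 ± 0.16 and Atf5 lower by -1.78 ± 0.11.

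Between left ventricle and skeletal muscle the same lists gave 15 higher and 14 lower for heat shock regulators (26 and 9 under total counts), 1 and 6 for chaperonin and prefoldin (6 and 5), 5 and 3 for the sensors (7 and 1), 15 and 6 for ER folding (18 and 5), 3 and 11 for degradation (6 and 6) and 6 and 6 for integrated stress response targets (9 and 3). Over all genes, 15.4% were called higher and 11.3% lower in left ventricle (24.5% and 5.63% under total counts). Atf6 was higher in left ventricle by 1.64 ± 0.08, and Chac1, a glutathione-degrading target of ATF4, was higher in skeletal muscle (-2.88 ± 0.19). Kidney against skeletal muscle gave 15 and 21 for heat shock regulators (24 and 12 under total counts), 3 and 7 for chaperonin and prefoldin (12 and 0), 7 and 3 for the sensors (10 and 0), 20 and 4 for ER folding (23 and 1), 8 and 6 for degradation (15 and 3) and 9 and 6 for integrated stress response targets (12 and 4). There, 22.1% of all genes were called higher and 21.4% lower (34.8% and 5.25% under total counts).

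With age, no member was called in any tissue. Left ventricle had 0 of 36 called (0.0741% of all 44546 genes were), skeletal muscle 0 of 36 (0.0183% of 43711) and kidney 0 of 36 (0.112% of 44572). At an unadjusted p under 0.05 left ventricle had 2 members (3.37% of genes), skeletal muscle 2 (5.51%) and kidney 5 (7.96%). DESeq2 called 0 members in left ventricle, 0 in skeletal muscle and 1, Herpud1, in kidney (adjusted p = 0.0104). In kidney it called 0.262% of all genes higher and 0.271% lower at 86 weeks. The fitted log2 changes from 16.5 to 86 weeks ran from -0.31 to 0.37 in left ventricle, from -0.39 to 0.36 in skeletal muscle and from -0.53 to 0.65 in kidney. They were above 0 for 11, 20 and 17 of the 36 members, with medians of -0.07, 0.02 and -0.03 beside 0.01, 0.02 and 0.02 over all genes.

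**Figure D3:**
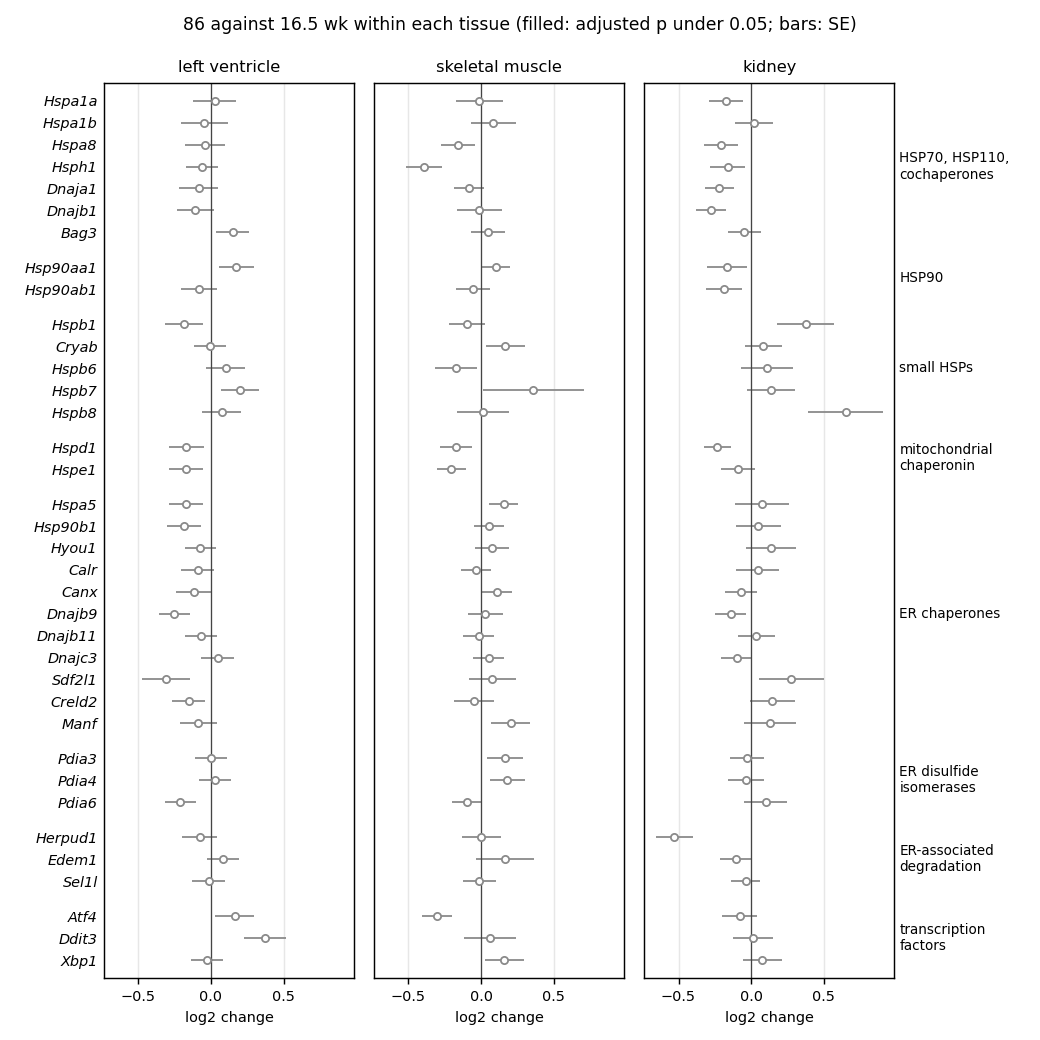
log2 change from 16.5 to 86 weeks with its SE for each member in each tissue; open circles mark an adjusted p of 0.05 or more, which holds for all 36 members. The points lie between -0.53 (Herpud1, kidney) and 0.65 (Hspb8, kidney).

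In left ventricle the 5 members with the smallest p were Ddit3 (0.37 ± 0.15), Dnajb9 (-0.25 ± 0.11), Pdia6 (-0.21 ± 0.11), Sdf2l1 (-0.31 ± 0.16) and Hsp90b1 (-0.18 ± 0.12). Ddit3 was 5.20, 5.80, 10.1 and 8.41 CPM at 16.5 weeks (replicates 14, 15, 19 and 20) and 7.62, 9.88, 10.3 and 9.26 CPM at 86 weeks (replicates 11, 12, 14 and 17). Only the 16.5-week females were low, so the ages overlapped. Of the 11 ER chaperones 10 had a log2 change below 0, none of them called.

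In skeletal muscle the smallest p-values belonged to Hsph1 (-0.39 ± 0.12, adjusted p = 0.724), Atf4 (-0.31 ± 0.10, adjusted p = 0.776), Hspe1 (-0.21 ± 0.10), Hspd1 (-0.17 ± 0.11) and Manf (0.20 ± 0.13). Atf4 was 51.5, 58.6, 65.2 and 53.8 CPM at 16.5 weeks and 47.6, 44.8, 47.3 and 45.6 CPM at 86 weeks. These ages did not overlap, which was so for 1 member in skeletal muscle (2.87% of all genes), 0 in left ventricle (2.12%) and 0 in kidney (3.78%). Hsph1 was 104.2, 95.1, 111 and 80.0 CPM at 16.5 weeks and 75.0, 80.2, 79.6 and 62.1 CPM at 86 weeks, with 1 older mouse just above the lowest younger mouse. Hspb7 had the widest spread between mice of an age in this tissue, at 23.8, 6.86, 11.9 and 7.09 CPM and then 8.90, 18.7, 17.6 and 17.4 CPM. The muscle library with the high Myh6 (86-week replicate 17) was the one with 17.4 CPM, and the part of cardiac transcripts in that value was not tested.

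In kidney the smallest p-values belonged to Herpud1 (-0.53 ± 0.13, adjusted p = 0.198), Dnajb1 (-0.28 ± 0.10), Hspb8 (0.65 ± 0.26), Hspd1 (-0.23 ± 0.10) and Dnaja1 (-0.22 ± 0.10). Herpud1 was 82.6, 115, 152 and 123 CPM at 16.5 weeks and 60.2, 69.2, 115 and 85.7 CPM at 86 weeks. The ages overlapped, and in each sex the older mice were below both younger ones. Hspb8 was 2.72, 4.57, 4.06 and 2.96 CPM at 16.5 weeks and 2.93, 4.20, 8.32 and 9.04 CPM at 86 weeks, so that the high values were those of the older males alone.

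The members with the widest spread between mice included 3 ER chaperones in kidney. Hspa5 was 448, 434, 384 and 398 CPM at 16.5 weeks and 297, 553, 319 and 578 CPM at 86 weeks. Manf, a secreted factor held in the ER by BiP, was 32.6, 32.1, 30.3 and 29.3 CPM and then 22.4, 43.2, 26.4 and 43.7 CPM. Sdf2l1, a partner of ER HSP70 cochaperones, was 9.26, 10.6, 5.22 and 7.17 CPM and then 7.83, 14.5, 5.06 and 11.1 CPM. In all 3 genes replicates 12 and 17, an older female and an older male, were the higher pair at 86 weeks, and replicates 11 and 14 the lower pair. Summed plasma cell markers, which come from cells rich in ER chaperones, were 31.95 to 104.9 CPM in kidney at 16.5 weeks and 112 to 549 CPM at 86 weeks. Of these markers Igkc, scaled over all 24 libraries, was 25.6, 141, 25.8 and 24.5 CPM at 86 weeks (replicates 11, 12, 14 and 17). The part of plasma cells in the spread was not tested.

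No pathway list had a gene called with age in any tissue. Nor was any member called in the test of age by tissue: 0 of 36 (0.0319% of 46984 genes were called), with 1 member, Herpud1, at an unadjusted p under 0.05 (4.06% of genes) and 0 by DESeq2.

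Between the sexes, members changed in kidney and, for 1 gene, in skeletal muscle. In kidney 4 members were called higher in males (3.77% of genes were called higher) and 0 lower (3.81% were called lower). They were Hspd1 (0.53 ± 0.10, adjusted p = 0.00261), Edem1 (0.54 ± 0.11, adjusted p = 0.00452), Dnaja1 (0.46 ± 0.10, adjusted p = 0.0105) and Herpud1 (0.56 ± 0.13, adjusted p = 0.0130). In skeletal muscle 0 members were higher in males (0.977% of genes) and 1 was lower (0.382%), Dnaja1 at -0.46 ± 0.10 (adjusted p = 0.0439). In left ventricle 0 of 36 were called by edgeR (0.871% of genes) or by DESeq2, with 8 at an unadjusted p under 0.05 (5.10% of genes).

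**Figure D4:**
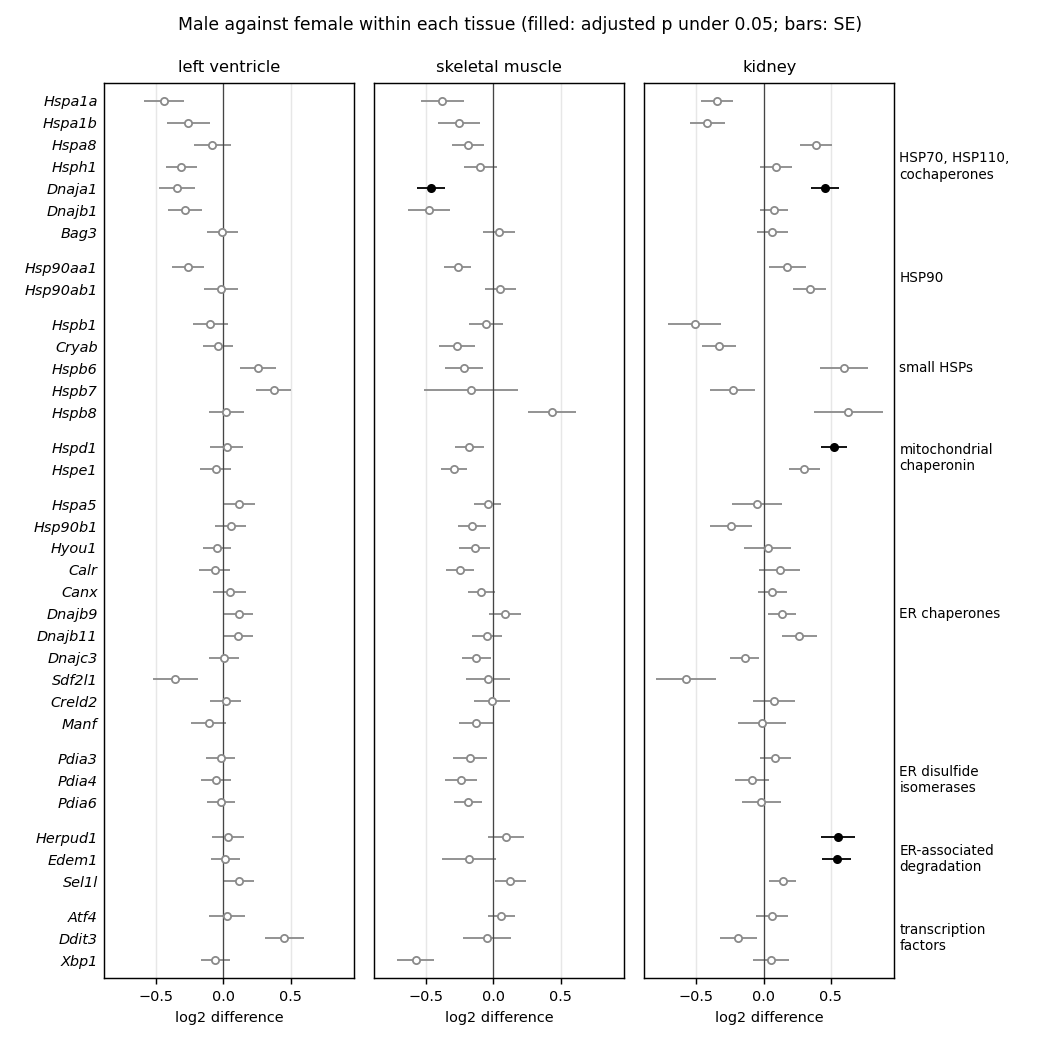
log2 difference of males against females with its SE for each member in each tissue, filled where the adjusted p was under 0.05. Dnaja1 is filled left of 0 in skeletal muscle (-0.46) and right of 0 in kidney (0.46), with Hspd1, Herpud1 and Edem1 filled right of 0 in kidney only.

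Kidney Hspd1 was 422, 423, 316 and 385 CPM in females (replicates 14 and 15 of 16.5 weeks, 11 and 12 of 86 weeks) and 599.8, 586, 484 and 551 CPM in males (19 and 20 of 16.5 weeks, 14 and 17 of 86 weeks). Kidney Edem1 was 86.2, 82.8, 68.8 and 97.3 CPM in females and 137, 123, 114 and 115 CPM in males. The sexes did not overlap for either gene. Kidney Herpud1 was 82.6, 115, 60.2 and 69.2 CPM in females and 152, 123, 115 and 85.7 CPM in males, which overlapped. Leaving out 16.5-week replicate 19 (adjusted p = 0.0577), 86-week replicate 14 (0.0547) or the age term (0.126) ended its call, while those of Hspd1, Edem1 and Dnaja1 held without any 1 mouse. Hspe1, the partner of Hspd1, was 0.30 ± 0.12 higher in males without overlap but was not called (adjusted p = 0.164). With the filter of 1 CPM in 4 libraries 8 members were called higher in male kidney, beside 10.8% of the 20531 genes then tested.

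Dnaja1 went in opposite directions in the 2 tissues. Skeletal muscle had 47.6, 48.8, 45.0 and 49.5 CPM in females and 36.2, 36.6, 36.3 and 29.7 CPM in males, whereas kidney had 211, 218, 156 and 208 CPM in females and 298, 283, 238 and 269 CPM in males. Neither overlapped. In left ventricle Dnaja1 was 70.7, 66.1, 50.1 and 75.4 CPM in females and 44.4, 60.7, 52.9 and 49.0 CPM in males (-0.34 ± 0.13, not called). The difference between tissues was itself tested, in a comparison added after the data were seen: Dnaja1 was the only member called for sex by tissue (adjusted p = 0.00767; 1 of 36, 1.88% of all genes). This call was lost with RLE size factors (adjusted p = 0.0695) and without 16.5-week replicate 14 (0.0644). The muscle call alone was less firm, since it was kept without 86-week replicate 17, the library with high Myh6 (adjusted p = 0.0468), and lost when any other mouse was left out (0.0584 to 0.207), with RLE size factors (0.104) and with all 24 libraries in 1 fit (0.0584), where Xbp1 was called instead.

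In skeletal muscle the next smallest p-values belonged to Xbp1 (-0.58 ± 0.14, adjusted p = 0.0628, called by DESeq2 at 0.0130 and without replicate 14 of either age at 0.0436 and 0.0492), Dnajb1 (-0.48 ± 0.16), Hspe1 (-0.29 ± 0.10) and Hsp90aa1 (-0.27 ± 0.10). Muscle Xbp1 was 26.1, 37.0, 36.5 and 32.8 CPM in females and 19.2, 22.4, 27.2 and 20 CPM in males, with 1 male above the lowest female. In left ventricle the smallest were Ddit3 (0.45 ± 0.15), Hspa1a (-0.44 ± 0.15), Hspb7 (0.38 ± 0.13), Hsph1 (-0.31 ± 0.11) and Dnaja1. Ventricular Hspb7 was 445, 384, 466 and 507 CPM in females and 531, 569, 727 and 506 CPM in males, and it was called higher in males only when 86-week replicate 17 was left out.

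The sexes did not overlap for 2 of the 36 members in left ventricle, beside 3.6% of all genes. They did not overlap for 4 of 36 in skeletal muscle (6.12% of genes) and 5 of 36 in kidney (11.9%). All of these members in the muscles were lower in males (Hspa1a and Hsph1 in left ventricle, Dnaja1, Hsp90aa1, Calr and Pdia6 in skeletal muscle). All of those in kidney were higher (Hspa8, Dnaja1, Hspd1, Hspe1 and Edem1). Whether the sexes were apart more often for members than for other genes was not tested, nor was the shared direction within a tissue. Across the module, the members with a log2 difference above 0 numbered 23 in kidney, 16 in left ventricle and 7 in skeletal muscle, with medians of 0.07, -0.02 and -0.15 beside -0.02, -0.02 and 0.03 over all genes.

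In the pathway lists, male kidney had 4 of 44 heat shock regulators called higher and 2 lower. For these lists too, 3.77% of all genes were called higher in male kidney and 3.81% lower. Whether a list differed from all genes was not tested. Fkbp5, a glucocorticoid-induced HSP90 cochaperone, was 1.54 ± 0.18 higher and Hspa2, an HSP70 known from testis, -1.06 ± 0.11 lower. Prefoldin genes Pfdn2 (0.57 ± 0.08) and Pfdn1 (0.34 ± 0.08) were the only ones called of 14. Of 18 further degradation genes, 3 were called higher, the unfoldase Vcp (0.44 ± 0.10), its cofactor Nploc4 (0.39 ± 0.10) and the channel protein Derl1 (0.32 ± 0.09), and 0 lower. Of 20 integrated stress response targets, 2 were higher (Shmt2 at 0.96 ± 0.10, Gdf15 at 0.80 ± 0.18) and 1 lower (Phgdh at -0.69 ± 0.15). Of 26 ER folding genes, 1 was higher (Sil1 at 0.46 ± 0.10) and 1 lower (Txndc5 at -0.59 ± 0.09), and of the 10 sensors only Eif2ak4 was called (-0.43 ± 0.10). In skeletal muscle Cebpb (-1.25 ± 0.19) and Sec61b (-0.88 ± 0.20) were the only genes of these lists called, where 0.382% of all genes were called lower. In left ventricle there were 0 (0.871% of all genes).

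Other genes moved with sex in the same libraries. The clock output gene Dbp was 4.4 to 9.2 CPM in the left ventricle of all 4 females and 56.2, 27.4, 49.3 and 4.7 CPM in males (replicates 19, 20, 14 and 17), and in kidney 2.7 to 8.0 CPM in females and 53.1, 21.1, 33.7 and 4.6 CPM in males. Of 15 clock genes, 2 were called higher in male left ventricle, 2 in male skeletal muscle and 6 in male kidney, and 0 lower. Over all genes, 0.68%, 0.977% and 3.77% were called higher in males in these tissues, and 3.81% lower in male kidney. All 5 red cell markers were called lower in male kidney, where they summed to 369 to 472 CPM against 503 to 825 CPM in females. The part of these differences in the sex results was not tested.

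**Figure D5:**
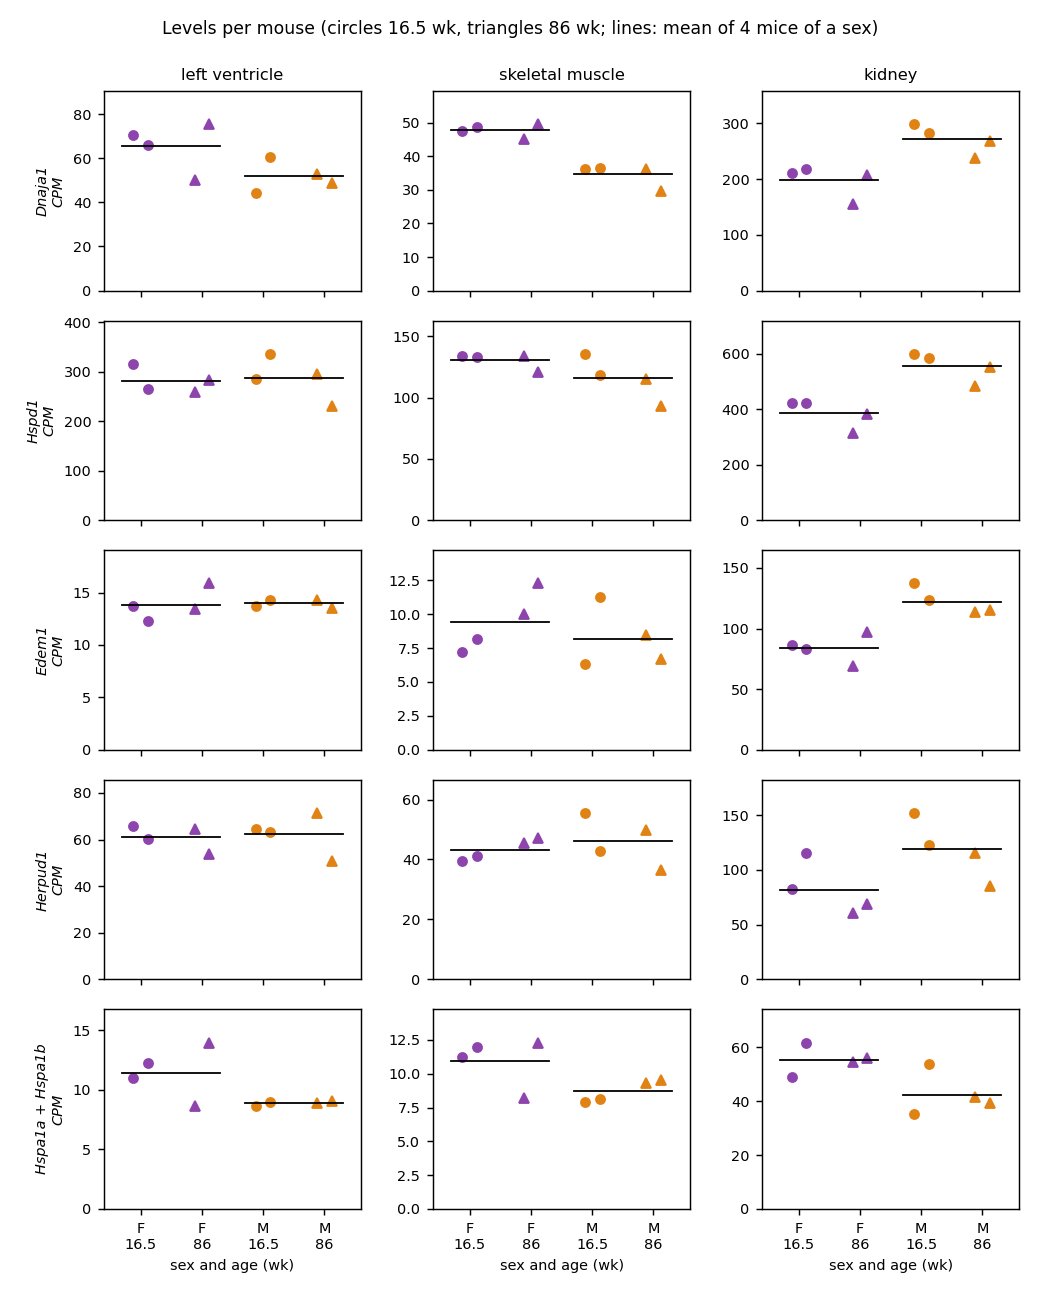
CPM scaled within each tissue, from 0, of Dnaja1, Hspd1, Edem1, Herpud1 and the sum of Hspa1a and Hspa1b in each mouse, by sex (purple females, orange males) and age (circles 16.5 weeks, triangles 86 weeks; lines, the mean of the 4 mice of a sex). Male Dnaja1 lies below female Dnaja1 in skeletal muscle (29.7 to 36.6 against 45.0 to 49.5) and above it in kidney (238 to 298 against 156 to 218).

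The inducible HSP70 pair varied between mice, and none of its age changes was called. Left ventricular Hspa1a was 5.87, 7, 4.40 and 4.74 CPM at 16.5 weeks (replicates 14, 15, 19 and 20) and 4.98, 7.68, 4.74 and 4.92 CPM at 86 weeks (replicates 11, 12, 14 and 17), and left ventricular Hspa1b was 5.10, 5.20, 4.28 and 4.25 CPM and then 3.64, 6.28, 4.18 and 4.15 CPM. Summed over the pair, left ventricle had 10.96 and 12.2 CPM in the younger females, 8.68 and 8.99 CPM in the younger males, 8.61 and 14 CPM in the older females and 8.92 and 9.07 CPM in the older males. 3 of the 4 females thus stood apart from the other 5 mice, of which 1 was female.

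The same 3 females were the highest in skeletal muscle. There the sum was 11.3 and 12 CPM in the younger females, 7.89 and 8.10 CPM in the younger males, 8.20 and 12.3 CPM in the older females and 9.35 and 9.54 CPM in the older males. In kidney it was 48.9 and 61.6 CPM, 35.1 and 53.6 CPM, 54.4 and 56.1 CPM, and 41.3 and 39.2 CPM in the same order, and the sexes overlapped. Because the mice fell into sets of 3 and 5 in both muscles, neither of which reaches 6 mice, no correlation over the 8 mice is read as a result. The fitted difference of males against females was below 0 in every tissue for Hspa1a (-0.44 ± 0.15, -0.38 ± 0.16 and -0.35 ± 0.12 in left ventricle, skeletal muscle and kidney) and for Hspa1b (-0.26 ± 0.16, -0.25 ± 0.16 and -0.42 ± 0.13), and none of the 6 was called. In kidney, both genes were called lower in males without 16.5-week replicate 20, and Hspa1b without 16.5-week replicate 14. The age changes of the pair lay between -0.17 and 0.08.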

How the data were processed

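RNA of 24 libraries was extracted with the Zymo Direct-zol kit and sequenced after ribosomal depletion, per the labels' protocols. The authors deposited whole-number read counts per gene for every library, and the submitters' processing notes name STAR 2.7.6a, StringTie 2.1.1 and build GRCm38.p6; use of strand is not given in the sources used here, so overlapping antisense genes cannot be told apart. Every column matched 1 sample.

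Counts were tested with edgeR 4.0.16 (quasi-likelihood F-test, R 4.3.3): filterByExpr, TMM scaling, Benjamini-Hochberg adjustment over all genes tested and a threshold of 0.05. Age and sex were additive terms within a tissue (8 libraries, 5 residual degrees of freedom). Tissues, age by tissue and sex by tissue were fitted on all 24 libraries (15 residual degrees of freedom). Alternatives were DESeq2 1.42.0, RLE size factors, other filters, dropped terms, total counts, a block for the mouse and leaving out each mouse. The main edgeR tests were checked on simulated counts for age, sex, left ventricle against skeletal muscle, age by tissue and sex by tissue. The other tissue pairs, the alternatives and the correlations were not checked in this way.

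The members and lists were chosen with earlier results of these data known. All 36 members are accounted for. Full statistics are given for members past the threshold, or the 5 with the smallest p where fewer than 4 passed. Between tissues they are given for the 2 largest differences each way in each role. Values per library are given for Hspa1a, Hspa1b and the 5 members with the widest spread, and up to 3 genes each way are named per list. Some further members were given per library after their values were seen.

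Titles give the same mouse number to 3 tissues, so tissues are paired by mouse. The deviations of same-mouse libraries from their group means correlated by 0.0165 to 0.416 (24 pairs, median 0.233, 21 over 0.1). The 2 ages are different mice. GENCODE M21 held 36 of the 36 gene IDs without their version and 34 with it.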

Additional observations from a re-analysis of the deposited data

Results flagged for a closer look

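Among 216 groups of 4 libraries of a tissue and age (36 members in 6 groups), 10 had 1 library far from the other 3, and chance gives about 1 in 20 groups. Levels are CPM scaled within the tissue.

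The left ventricle of 86-week replicate 12, a female, had 3 of these. Its Hspa1a was 7.68 CPM against 4.74 to 4.98 in the other older mice, its Dnaja1 75.4 CPM against 49.0 to 52.9, and its Xbp1 31.0 CPM against 27.3 to 27.4. The skeletal muscle of 86-week replicate 17, the library with 342 CPM of Myh6, also had 3, all low: Hspb6 at 57.7 CPM against 74.5 to 76.4, Dnajc3 at 37.3 CPM against 43.7 to 45.0, and Pdia6 at 21.7 CPM against 27 to 28. Their relation to the cardiac transcripts of that library was not tested.

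The other 4 were single genes. Hspb7 was 727 CPM in the left ventricle of 86-week replicate 14 against 466 to 507, and 8.90 CPM in the skeletal muscle of 86-week replicate 11 against 17.4 to 18.7. Hspb1 was 6.61 CPM in the kidney of 16.5-week replicate 15 against 3.10 to 3.63. Hspd1 was 118 CPM in the skeletal muscle of 16.5-week replicate 20 against 133 to 136.

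The sex difference of Dnaja1 differed between the tissues (adjusted p = 0.00767, edgeR test of sex by tissue), with males below females in skeletal muscle and above them in kidney.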

How the results depend on the processing

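Between tissues, the number of members called stayed within 1.5 times the main count under every alternative, a limit that a count out of 36 could not pass upward. It was 22 to 25 (24 in the main fit), 30 to 32 (32) and 33 to 35 (34) when each mouse was left out. These counts do not show direction, and all 13 named values that turned in a refit, given below, were differences between tissues. Tissues were paired by mouse, and with the replicate block the members called stayed at 24, 32 and 34 between tissues, 0 for age by tissue and 1 for sex by tissue; the block changed none of these counts. The 0 members called with age held in left ventricle and skeletal muscle under all alternatives, and in kidney under all but DESeq2 (1). Counts over all genes for age were less steady. In left ventricle 33 became 70 by DESeq2, 18 without a filter and 24 to 117 when each mouse was left out. In skeletal muscle 8 became 90 by DESeq2, 0 without a filter, 1 without a sex term, 25 with 24 libraries in 1 fit and 1 to 43 without each mouse. In kidney 50 became 238, 1, 0, 28 and 19 to 69 in that order. For age by tissue 15 became 52 by DESeq2, 7 with RLE size factors, 5 without a filter, 45 with the 1 CPM filter, 33 with total counts and 4 to 26 without each mouse.

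For sex, members called ranged without each mouse from 0 to 1 in left ventricle (0), 0 to 1 in skeletal muscle (1), 3 to 7 in kidney (4; 7, of them 5 higher and 2 lower in males, without 16.5-week replicate 20; 4 higher and 2 lower without 16.5-week replicate 14) and 0 to 2 for sex by tissue (1). Skeletal muscle gave 2 by DESeq2 and 0 with RLE. Kidney gave 6 by DESeq2, 5 with RLE, 5 with 24 libraries in 1 fit and 8 with the 1 CPM filter, all higher in males. Hspb6 was among them each time. Sex by tissue gave 0 with RLE, 3 with the 1 CPM filter and 4 with total counts. Over all genes, left ventricle (388) gave 725 without a filter, 18 with the 1 CPM filter, 702 with 24 libraries in 1 fit and 161 to 374 without each mouse. Skeletal muscle (594) gave 918, 297, 1091 and 345 to 718. Sex by tissue (882) gave 1760 with the 1 CPM filter and 1689 with total counts. Of 18 correlations of the Hspa1 sum over 8 mice, which are not read as results, 4 passed by Pearson's r (left ventricle with skeletal muscle, with Dnajb1 in both muscles and with Hsph1 in left ventricle) and 0 by Spearman's rho. By Pearson's r 0 passed without the 2 mice farthest from the median, 1 after removing sex means and 4 after removing age means, where 1 also passed by Spearman's rho.

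Of 1306 refits of 98 named values, 1236 kept direction and call, 38 lost the call, 19 gained it and 13 turned. For left ventricle against skeletal muscle Dnajc3 turned to 0.0087 by DESeq2 and with RLE, 0.017 without a filter and 0.26 with total counts. Total counts also turned Hsp90ab1 (0.12), Hspb8 (0.057), Dnajb9 (0.12) and Xbp1 (0.074) there, Dnajb9 (0.18) for kidney against left ventricle, and Hsph1 (0.47), Hsp90ab1 (0.028) and Dnajb9 (0.30) for kidney against skeletal muscle. Atf4 turned to -0.013 for kidney against left ventricle with the 1 CPM filter. The cause was not tested.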

Other observations

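Within a tissue and age, many members had their highest levels in the same mice, a pattern noticed after the values were seen. In left ventricle at 16.5 weeks replicates 14 and 20 held the 2 highest levels for 23 of the 36 members and 12 of 17 ER members (17.6% of all genes), and at 86 weeks replicates 12 and 14 did so for 22 of the 36 and 8 of 17 (11% of genes). In kidney at 86 weeks replicates 12 and 17, a female and a male, did so for 22 of the 36 and 15 of 17 ER members (14.9% of genes), while at 16.5 weeks the most for any pair was 11 of the 36. In skeletal muscle the leading pairs were replicates 14 and 15 at 16.5 weeks (15 of the 36, 18.9% of genes) and 12 and 14 at 86 weeks (18 of the 36, 11.7% of genes). The pairs named were picked as those with the most members. The shares are over all genes tested, and in left ventricle only 19083 of 44546 averaged at least 1 CPM, as every member did. No share was taken among genes of like level. A lower TMM factor raises all CPM of a library. The leading pair had the 2 lowest factors of its group in left ventricle at 16.5 weeks (0.951 and 0.887). The same held in kidney at 86 weeks (1.003 and 0.942) and skeletal muscle at 86 weeks (1.0004 and 0.988), but not for the other leading pairs. The part of scaling in the pattern was not tested.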
